A study of Mus musculus with 6 samples.

Results

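Cholesterol is built from acetyl-CoA in a long chain of enzymes, and the transcription factor SREBP2 raises the genes of that chain when sterols in the endoplasmic reticulum run low. SCAP carries SREBP2 out of the endoplasmic reticulum, and the INSIG proteins hold it back when sterols are plentiful. The liver is a main site of this synthesis, and it also takes up, stores and secretes sterols. The 28 genes described here cover that chain, its SREBP2 control and the handling of the finished sterol, out of 23415 genes in the deposited table. They were chosen by gene symbol and fall into 4 roles: 7 genes of the mevalonate arm, 10 of the squalene and sterol arm, 5 of SREBP2 control and 6 of sterol transport and storage.

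Liver RNA came from 3 alkaline sphingomyelinase (alk-SMase, encoded by Enpp7) knockout mice and 3 wildtype mice, all labelled C57BL/6; the labels used here give no age and no treatment. The genotype was read from the K or W that opens each sample name, and no source says how the allele was made. The series design names intestine as the tissue while its title and sample labels say liver. Each gene has 1 FPKM value per group (reads scaled for transcript length and depth), pooled by the authors over 3 libraries, so the spread between mice is not measured here and no value per mouse was used. A ratio is the log2 of the knockout value over the wildtype value, and its ± is the standard error (SE) implied by the authors' test statistic. Only genes under a q of 0.05 in the authors' deposited table are said to have risen or fallen.

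The transcripts were those of liver. The 12 hepatocyte markers had a median of 945 FPKM in knockout livers and 1034 FPKM in wildtype livers, with Apoa1 highest at 16007 and 11662 FPKM. The 12 intestinal epithelium markers had a median of 0.871 and 0.664 FPKM, but their levels were split. Apoa4, which liver also makes, was highest at 86.5 and 98.6 FPKM. Tff3 stood at 48.8 and 23.9 FPKM, Fabp2 at 42.9 and 54.7 FPKM, and Anpep at 40.1 and 41.6 FPKM. Of the others, Rbp2 was highest at 1.52 and 1.28 FPKM. Enpp7 was at 0.141 FPKM in knockout livers, against 0.0541 FPKM in wildtype livers and was not tested by the authors, so it does not check the genotype labels. The tested markers of blood-derived and resident macrophage cells had ratios above 0, and some of them were called. All 10 tested of 11 neutrophil and monocyte markers had ratios above 0, with 4 called higher and a summed level of 113 FPKM in knockout livers against 8.18 FPKM in wildtype livers. All 10 Kupffer cell and macrophage markers had ratios above 0, with 2 called higher and sums of 522 and 329 FPKM. Over all 11515 tested genes 66 were called higher, and 49.9% of the finite ratios were above 0. Cholangiocyte markers held 1 call, Spp1 at 142 against 62.6 FPKM, and the 6 sinusoidal endothelium and 6 stellate cell markers held 0. No marker in these lists was listed at 0. In whole liver, more cells of a type and more RNA per cell cannot be told apart, and the part of these cells in the values below was not tested.

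Promoter sequences are given for 4 genes. Hmgcs1 and Mvk, whose products act early in the mevalonate arm, had the smallest p of all members. Acat2 and Insig1 were, with Hmgcs1, the only members of the 22 matched whose window held CACNCCAC. These letters were taken as the core of a sterol regulatory element, the site SREBP binds. Elements with other letters were not searched. Each window runs from 250 bases before to 50 bases after the RefSeq start site (GRCm38.p6), 5′ to 3′ on the gene's own strand. Capitals mark CACNCCAC (the element's core), CCAAT (the NF-Y box) and GGGCGG (the Sp1 box), each on either strand.

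Hmgcs1 lies on the plus strand at chr13:119690101-119690400, and its window holds CACNCCAC starting 136 bases before the start site.
Hmgcs1: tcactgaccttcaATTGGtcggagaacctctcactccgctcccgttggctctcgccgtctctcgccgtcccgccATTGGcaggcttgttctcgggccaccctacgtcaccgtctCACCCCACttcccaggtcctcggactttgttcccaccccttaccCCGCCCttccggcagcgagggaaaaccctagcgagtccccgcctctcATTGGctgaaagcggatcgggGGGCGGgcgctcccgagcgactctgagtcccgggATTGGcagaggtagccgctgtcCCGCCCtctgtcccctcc
Mvk lies on the plus strand at chr5:114444019-114444318, and its window holds 5 CCAAT boxes and no CACNCCAC.
Mvk: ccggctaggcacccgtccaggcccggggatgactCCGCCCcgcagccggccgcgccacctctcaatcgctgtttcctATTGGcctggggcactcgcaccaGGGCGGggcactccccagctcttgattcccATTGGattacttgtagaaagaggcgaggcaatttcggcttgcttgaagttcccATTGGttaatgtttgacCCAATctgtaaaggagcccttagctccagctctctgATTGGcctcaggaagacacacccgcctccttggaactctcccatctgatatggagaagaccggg
Insig1 lies on the plus strand at chr5:28071162-28071461, with the core 9 bases before the start site on the opposite strand.
Insig1: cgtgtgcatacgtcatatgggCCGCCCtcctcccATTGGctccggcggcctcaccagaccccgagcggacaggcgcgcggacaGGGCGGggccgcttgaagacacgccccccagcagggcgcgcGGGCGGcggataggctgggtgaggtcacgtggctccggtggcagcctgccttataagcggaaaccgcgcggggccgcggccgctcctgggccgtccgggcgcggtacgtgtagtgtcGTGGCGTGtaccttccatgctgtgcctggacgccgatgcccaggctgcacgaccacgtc
Acat2 lies on the minus strand at chr17:12960676-12960975, with the core at 181 bases before the start site and, on the opposite strand, at 53 bases before it.
Acat2: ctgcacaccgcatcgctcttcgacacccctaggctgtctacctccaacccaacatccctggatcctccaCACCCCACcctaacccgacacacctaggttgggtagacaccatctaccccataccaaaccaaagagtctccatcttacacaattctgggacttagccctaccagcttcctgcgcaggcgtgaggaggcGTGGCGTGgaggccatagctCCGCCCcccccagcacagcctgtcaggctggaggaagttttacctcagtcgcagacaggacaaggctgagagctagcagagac

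These motifs are a feature that the choice of genes did not use. CCAAT stood in 20 of the 28 windows of the 22 matched genes (71.4%), against 37.4% of all 32851 windows in the RefSeq table and 37.7% of the 10932 windows of genes the authors tested. GGGCGG stood in 23 of the 28 (82.1%), against 35.7% of all windows and 61.4% of those of tested genes. CACNCCAC stood in 3 of the 28 (10.7%), against 6.24% of all windows and 6.51% of those of tested genes. No match overlapped another in these windows. The longer form TCACNCCAC stood in the Hmgcs1 window alone, against 1.24% of all windows. Windows of a gene with several start sites can overlap, as for Scap and Dhcr7, and a match is letters in a window, not a measured binding site. The 6 other members were Fdps, Fdft1, Sqle, Npc1, Stard4 and Soat2.

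**Figure D1:**
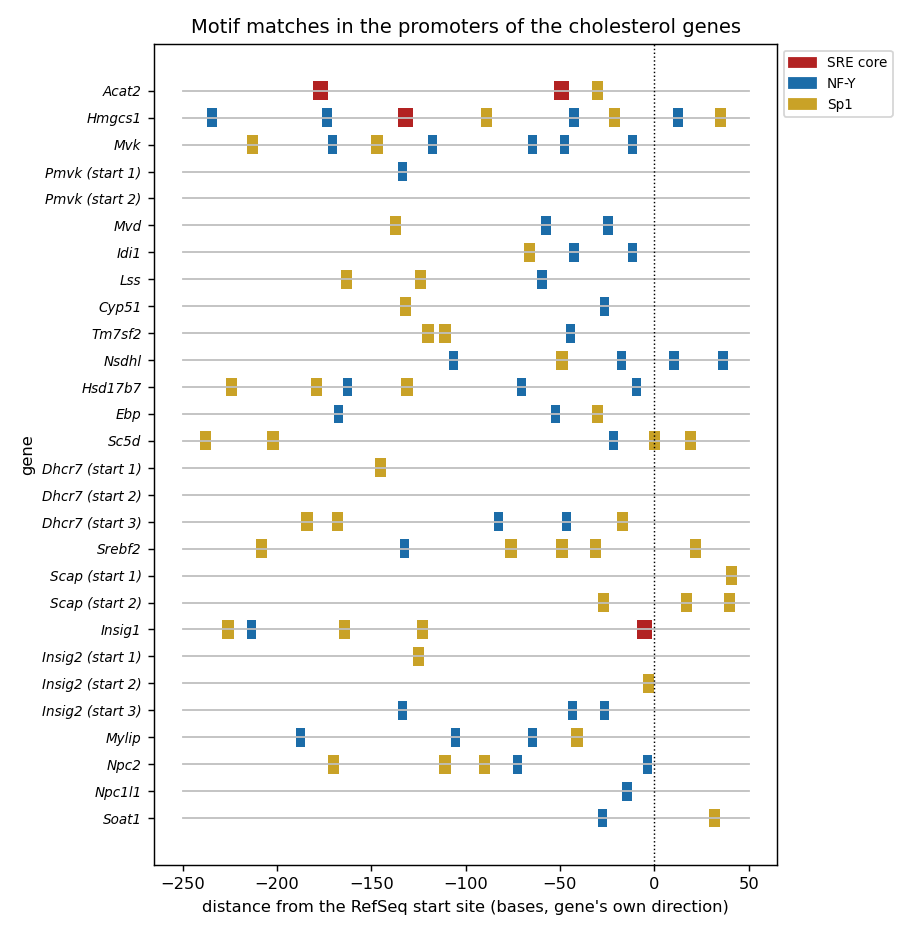
Matches to CACNCCAC (SRE core, red), CCAAT (NF-Y, blue) and GGGCGG (Sp1, gold) on either strand, by distance in bases from the RefSeq start site, for the 28 windows of 22 members; several start sites of a gene are numbered by their position on the chromosome. CCAAT and GGGCGG recur down the rows (20 and 23 windows), while the core is present for Acat2, Hmgcs1 and Insig1.

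As levels, the chain was well expressed in both groups. Of the 28 genes, 6 stood above 100 FPKM in knockout livers and 5 in wildtype livers, and 3 stood below 10 FPKM in each. Fdps, farnesyl diphosphate synthase, was highest at 339 FPKM in knockout livers and 317 FPKM in wildtype livers. It was followed by Sc5d, a sterol desaturase late in the chain, at 250 and 224 FPKM, and by Insig1 at 165 and 160 FPKM. The lowest were Npc1l1, which takes up dietary cholesterol in the mouse intestine, at 0.168 and 0.116 FPKM, and Soat1, the cholesterol-esterifying enzyme of macrophages, at 0.717 and 0.777 FPKM. Soat2, the form of hepatocytes and enterocytes, stood at 25.9 and 22.3 FPKM. The order of levels was close in both groups (Spearman's rho 0.978 across 28 genes, a description, since genes are not replicates). Of the 28 genes, 11 kept their rank, and the largest shift was 5 places. Without a spread between mice, it cannot be said which neighbours in that order differ.

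**Figure D2:**
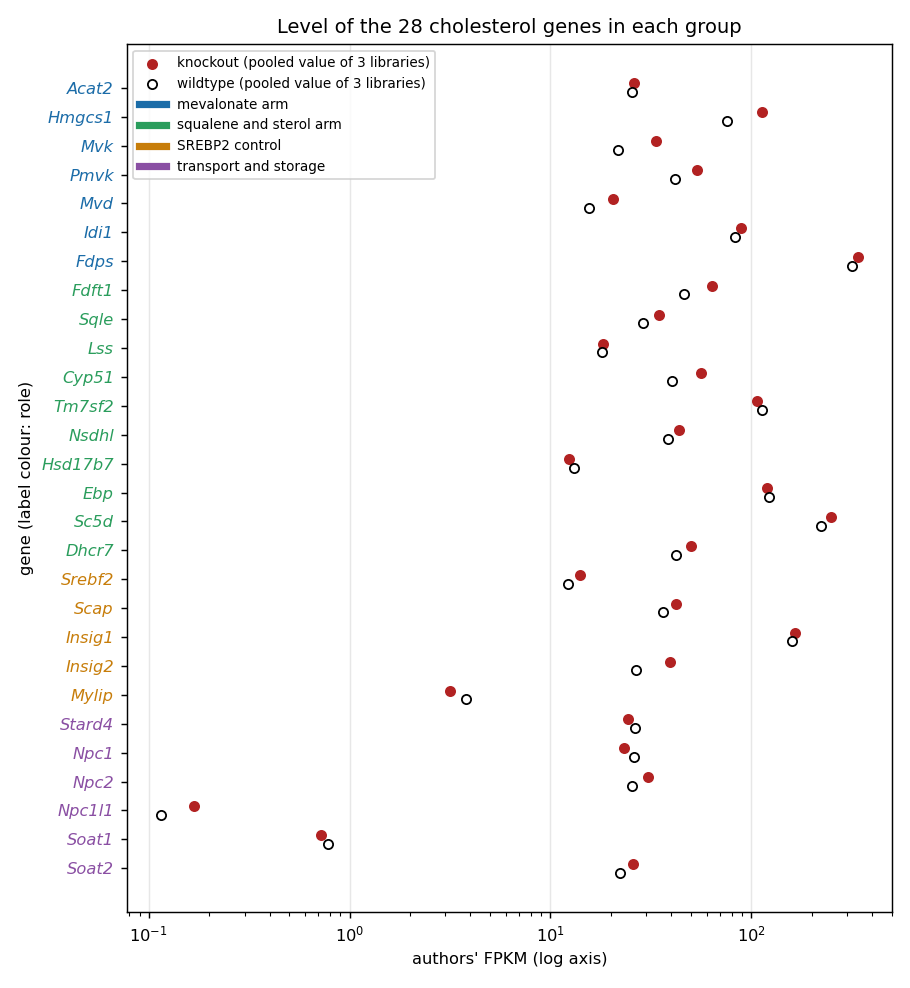
FPKM on a log axis for each of the 28 genes, with 1 value pooled by the authors over 3 libraries for the knockout group (red) and for the wildtype group (open); gene names are coloured by role. Levels span from Npc1l1 at 0.168 and 0.116 FPKM to Fdps at 339 and 317 FPKM, and the distance between the groups is small beside the distance between genes.

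No member rose or fell. Of the 27 tested, 0 had a q under 0.05 in the authors' deposited table, where 1.08% of all 11515 tested genes did, and the smallest q was 0.341, that of Mvk. At an unadjusted p under 0.05 in that table there were 4 of 27, Mvk, Hmgcs1, Insig2 and Cyp51, all higher in knockout livers. Over all tested genes 5.29% reached that p in either direction and 2.82% as higher. With the groups brought to an equal sum of FPKM the count was 0 of 27, and it was 2 of 27 where the 50 highest genes of either group were left out of that sum. Of the 27 ratios, 20 were above 0 as deposited and 12 were above 0 with the 2 groups set to an equal sum of FPKM. The 27 had a median of 0.18 against -0.0012 over all tested genes. Of them 20 lay above that overall median, as deposited and under quantile normalization. Scaling to the same sum moved the median of all tested genes to -0.20 and that of the members to -0.02. Such a scaling subtracts 1 constant from every ratio, so the distance of 0.18 and the count of 20 could not change.

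The sensitivity of the authors' test sets how these values can be read. Their SE ran from 0.22 to 0.66 with a median of 0.24, and the smallest ratio at which a member could have passed was 0.77 for Npc2 and 0.83 for the member at the median SE. All 27 tested members lay under their own limit, at 0.837-fold to 1.55-fold. For 23 of the 27 the 95% interval of the authors' model lay within 1 on the log2 scale in both directions. A doubling was outside those intervals, and how much smaller a change they also left out differed by gene. That of Stard4 ran from 0.675-fold to 1.24-fold and that of Cyp51 from 1.01-fold to 1.91-fold.

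**Figure D3:**
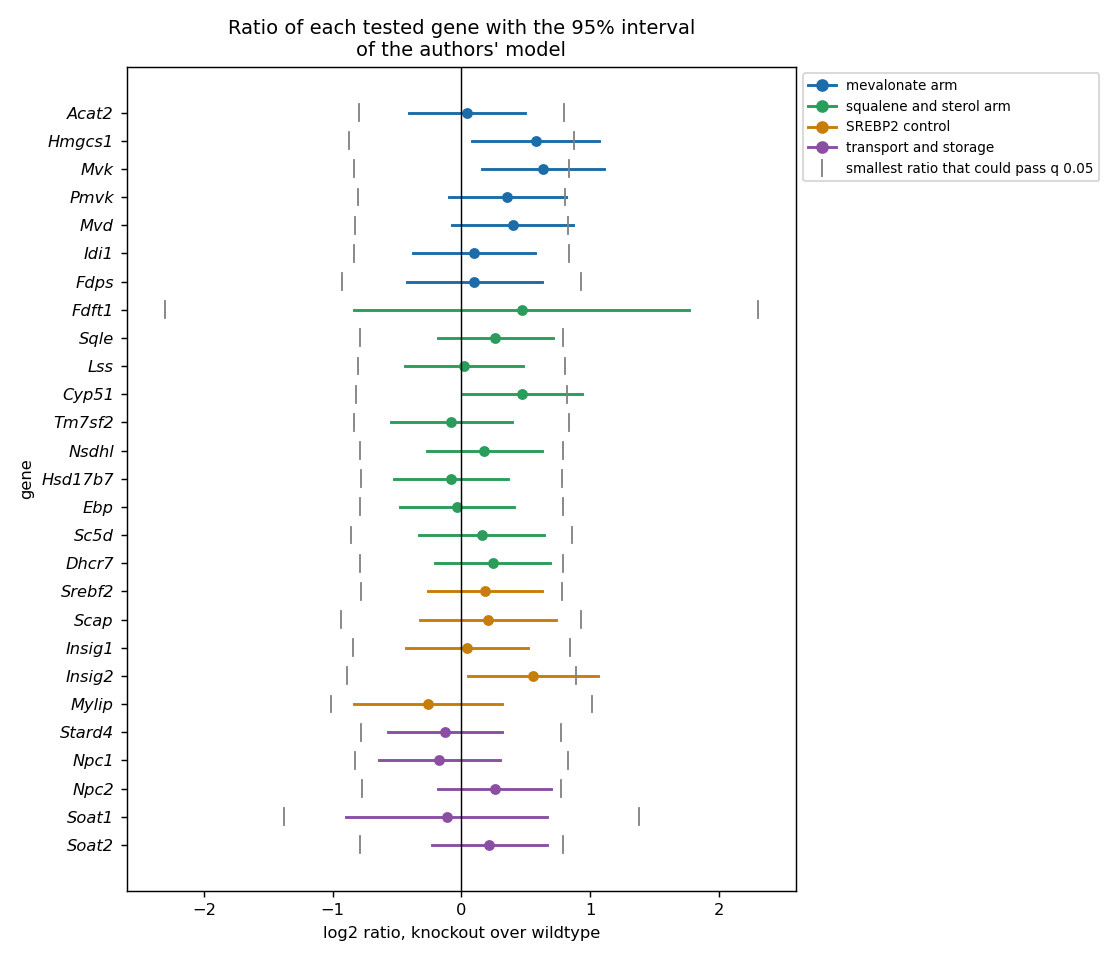
Log2 ratio of knockout over wildtype for the 27 tested genes (points) with the 95% interval of the authors' model (lines), coloured by role; grey ticks mark the smallest ratio that could have passed a q of 0.05. All points lie between the ticks, and 4 intervals, those of Hmgcs1, Mvk, Cyp51 and Insig2, exclude 0.

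In the mevalonate arm all 7 ratios lay above 0 as deposited, with a median of 0.36 that was 0.16 with the groups brought to an equal sum of FPKM, and 0 of 7 were called. Mvk (chromosome 5, 114444269 to 114460591 in GENCODE M21 on GRCm38), the kinase that first phosphorylates mevalonate, stood at 33.6 FPKM in knockout livers and 21.6 FPKM in wildtype livers. Its ratio was 0.64 ± 0.24 (SE), with p = 0.0084 and q = 0.341 in the authors' deposited table. Hmgcs1 (chromosome 13, 119690379 to 119708260), the cytosolic HMG-CoA synthase, was the second in size at 113 against 76.2 FPKM. Its ratio was 0.58 ± 0.25, with p = 0.0224 and q = 0.646 in the authors' deposited table. The next enzymes after Mvk stood on the same side with intervals that include 0. Pmvk, which adds the next phosphate, was at 53.6 against 41.9 FPKM (0.36 ± 0.23), and Mvd, which decarboxylates the product to isopentenyl diphosphate, was at 20.5 against 15.5 FPKM (0.40 ± 0.24). The remaining 3 were closer to 0. Acat2, the thiolase that opens the chain, was at 26.2 against 25.4 FPKM (0.04 ± 0.23). Idi1, the isomerase of isopentenyl diphosphate, was at 88.6 against 82.7 FPKM (0.10 ± 0.24), and the ratio of Fdps was 0.10 ± 0.27. These 3 had ratios below 0 when the groups were brought to the same sum of FPKM.

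In the squalene and sterol arm 7 of 10 ratios lay above 0 as deposited, with a median of 0.17 that turned to -0.03 with the groups scaled to the same sum, and 0 of 10 were called. Cyp51 (chromosome 5, 4081145 to 4104746), the lanosterol demethylase, stood at 56.1 FPKM in knockout livers and 40.4 FPKM in wildtype livers. Its ratio was 0.47 ± 0.24, with p = 0.0453 and q = 0.900 in the authors' deposited table. Fdft1, squalene synthase, had nearly the same ratio at 64.2 against 46.4 FPKM, but with an SE of 0.66 its interval ran from -0.83 to 1.77. Sqle, squalene epoxidase, which controls flux into the sterols, was at 34.8 against 29.0 FPKM (0.26 ± 0.23). Lss, which closes the ring system of lanosterol, was at 18.3 against 18.1 FPKM (0.02 ± 0.23).

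Of the later enzymes of that arm, Dhcr7, which makes cholesterol from its immediate precursor, was at 49.9 against 42.2 FPKM (0.24 ± 0.23). Nsdhl and Hsd17b7, which act together in removing methyl groups from the ring, lay on either side of 0. Nsdhl was at 43.7 against 38.7 FPKM (0.18 ± 0.23) and Hsd17b7 at 12.4 against 13.2 FPKM (-0.08 ± 0.23). The ratio of Sc5d was 0.16 ± 0.25. The 2 others below 0 were among the most abundant: Tm7sf2, a sterol reductase, at 107 against 113 FPKM (-0.08 ± 0.24) and Ebp, a sterol isomerase, at 120 against 123 FPKM (-0.03 ± 0.23).

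Among the 5 genes of SREBP2 control, Insig2 had the largest ratio, and 0 of 5 were called. Insig2 (chromosome 1, 121304353 to 121332589), the INSIG form that is known in mouse liver to respond to insulin and fasting, stood at 39.2 FPKM in knockout livers and 26.7 FPKM in wildtype livers. Its ratio was 0.55 ± 0.26, with p = 0.0312 and q = 0.759 in the authors' deposited table. Insig1, itself a target of SREBP2, was at 165 against 160 FPKM (0.04 ± 0.24, interval -0.43 to 0.52). Whether the 2 INSIG ratios differ was not tested. Srebf2, which encodes SREBP2, was at 14.0 against 12.3 FPKM (0.19 ± 0.23), and Scap at 42.2 against 36.6 FPKM (0.21 ± 0.27). Mylip, a ubiquitin ligase that marks lipoprotein receptors for breakdown, had the lowest ratio of all members at 3.18 against 3.80 FPKM (-0.26 ± 0.29).

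Genes of sterol transport and storage lay on both sides of 0, with 2 of the 5 tested above it and 0 called. Their median of -0.12 turned to 0.04 when Soat1, the lowest tested member, was left out by a minimum of 1 FPKM. Npc1 and Npc2, which pass cholesterol out of the lysosome together, stood at 23.3 against 26.2 FPKM (-0.17 ± 0.24) and at 30.6 against 25.6 FPKM (0.26 ± 0.22). Stard4, a cytosolic sterol carrier and a known SREBP2 target, was at 24.3 against 26.6 FPKM (-0.13 ± 0.22). The ratio of Soat2 was 0.22 ± 0.23 and that of Soat1 -0.12 ± 0.40. Npc1l1 was not tested by the authors.

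Counting can blur some of these genes. Of the 28 members, 8 share no stretch of 50 bases, the read length, with the transcripts of another gene in GENCODE M21, and 13 share at most 5% of their stretches. The other 7 share more. Acat2 shares 39.1%, led by its neighbour copy Acat3. Fdft1 shares 26.5%, led by Ctsb, a lysosomal protease gene on the opposite strand, which stood at 162 against 146 FPKM. Fdps shares 26.2% and Idi1 25.3% with overlapping transcripts and copies, Hmgcs1 11.6%, Scap 9.96% and Tm7sf2 9.87%. How multiply mapped reads were counted and whether the libraries keep strand are not given in the sources used here, so the values of these 7 are uncertain one by one. Insig2 shares none, Mvk 0.712% and Cyp51 2.77%.

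Mvk, Nsdhl, Dhcr7 and Npc2 each start within 1000 bases of a coding gene that runs the other way. Mmab, a vitamin B12 enzyme gene that starts 209 bases from Mvk, stood at 11.3 against 10.6 FPKM (0.10 ± 0.24), beside 0.64 ± 0.24 for Mvk. The partners of the other 3, Cetn2, Nadsyn1 and Isca2, had ratios of 0.26 ± 0.29, -0.0010 ± 0.23 and -0.02 ± 0.26. These 4 partners were chosen by position.

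Other genes of sterol handling were counted the same way in 5 lists. None of 11 tested genes of other sterol synthesis and isoprenoid branches was called, with 0 at an unadjusted p under 0.05 and a median of -0.13, or -0.32 with the groups brought to an equal sum. The smallest p there was that of Sc4mol (now Msmo1), a sterol methyl oxidase, at 101 against 79.8 FPKM (0.34 ± 0.23). None of 14 genes of SREBP processing and sterol-driven degradation was called, 12 had ratios below 0, and the median was -0.15, or -0.34 with the groups brought to an equal sum. Rnf145, a ubiquitin ligase of the endoplasmic reticulum, was at 6.65 against 10.1 FPKM (-0.61 ± 0.25), with p = 0.0135 and q = 0.475 in the authors' deposited table. None of 10 genes of the oxysterol response and efflux was called (median 0.08, or -0.12 with the groups scaled to the same sum), with Abca1, the cholesterol exporter, at 14.8 against 19.0 FPKM. None of 15 genes of sterol transport was called (median 0.11, or -0.09 with that scaling), with Nceh1, a cholesterol ester hydrolase, at 5.39 against 7.47 FPKM. In these last 2 lists 0 had an unadjusted p under 0.05.

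Of 10 tested genes of sterol turnover to bile acids 1 fell, where 0.504% of all tested genes were called lower. Cyp7a1, the hydroxylase that starts bile acid synthesis and limits its rate, was at 14.0 FPKM in knockout livers and 28.6 FPKM in wildtype livers (-1.02 ± 0.24, q = 0.0031 in the authors' deposited table). The list had a median of -0.16, or -0.35 with the groups brought to an equal sum, where 2 genes were called lower. Its other 3 genes at an unadjusted p under 0.05 were chosen after their values were seen. Akr1d1, a steroid reductase of bile acid synthesis, was at 39.6 against 59.0 FPKM (-0.57 ± 0.22) and Cyp46a1, a cholesterol hydroxylase, at 0.715 against 1.56 FPKM (-1.13 ± 0.47). Hsd3b7, a dehydrogenase of the same pathway, stood on the other side at 317 against 216 FPKM (0.56 ± 0.26).

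Fatty acid synthesis, the branch driven in part by the related factor SREBP1c, lay elsewhere. Of its 16 tested genes 7 fell and all 16 ratios were below 0, where 0.504% of all tested genes were called lower, with a median of -0.78 beside 0.18 for the 27 cholesterol genes, which held no call. The 5 with the smallest p were Elovl6, a fatty acid elongase (-1.50 ± 0.23), Fasn, fatty acid synthase (-1.28 ± 0.27), Thrsp, a lipogenic nuclear protein (-1.32 ± 0.28), Me1, malic enzyme (-0.98 ± 0.23), and Pklr, the liver pyruvate kinase (-1.03 ± 0.25). The highest ratio of the 16 was -0.06, and 20 of the 27 cholesterol genes lay above 0 as deposited. Srebf1, which encodes SREBP1, was at 118 against 145 FPKM (-0.30 ± 0.26), and Srebf2 had 0.19 ± 0.23. The distance between the lists was not tested, and the lists were chosen with earlier results of these data known.

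**Figure D4:**
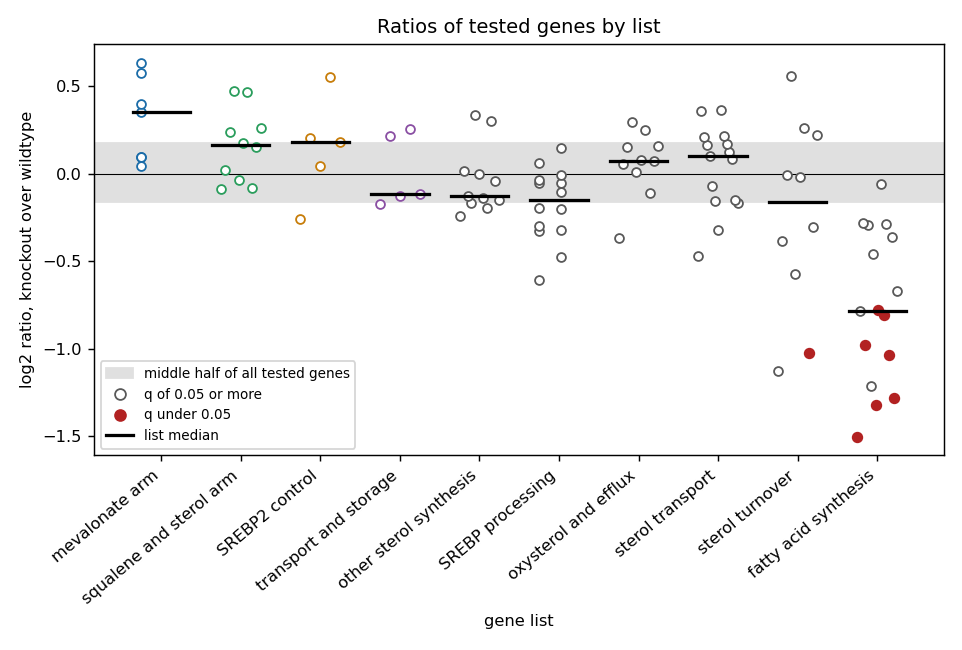
Log2 ratio of knockout over wildtype for the tested genes of 10 lists (the 4 roles of the cholesterol genes in colour, other lists in grey), with list medians as black lines, genes with a q under 0.05 in red, and the range between the quartiles of all tested genes (-0.16 to 0.17) shaded. The mevalonate arm has the highest median, 0.36, and fatty acid synthesis the lowest, -0.78, with 7 red points.

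How the groups are scaled decides the side of 0 for many members, since the sum of listed FPKM was 646306 in knockout livers, against 564749 in wildtype livers. As deposited, 20 of 27 ratios were above 0. With the same sum after leaving out the 50 highest genes of either group there were 17, and with the same sum of all listed FPKM 12. In each case 0 were called. The count of 20 above the median of all tested genes could not change, since such a scaling subtracts the same constant from every ratio.

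**Figure D5:**
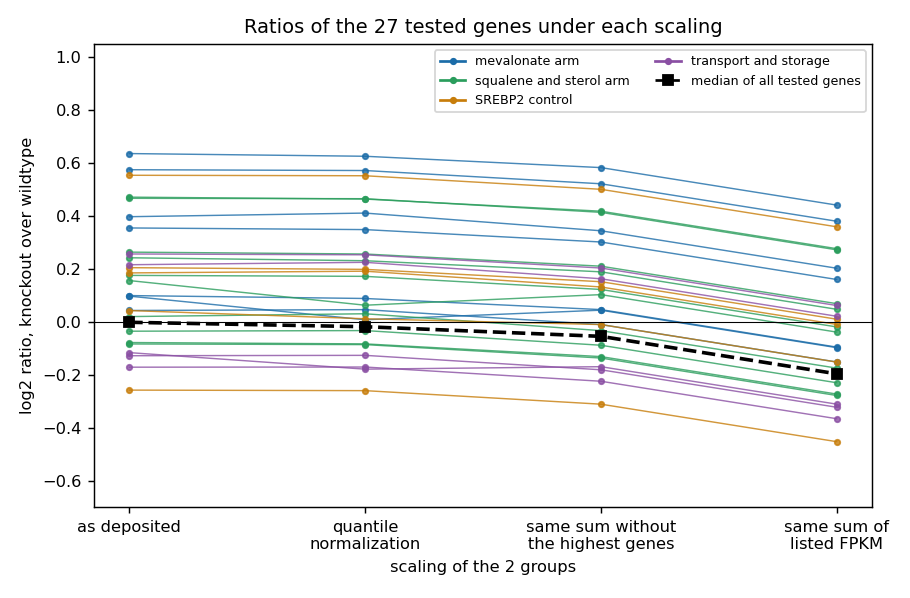
Log2 ratio of knockout over wildtype for each of the 27 tested genes (lines coloured by role) under 4 scalings of the groups, with the median of all tested genes dashed. Each same-sum scaling subtracts the same constant from every ratio, so members and overall median move down by the same amount there. Ratios above 0 go from 20 as deposited to 12 with the same sum of listed FPKM.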

How the data were processed

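Liver RNA libraries of 3 knockout (animals 82, 84 and 85) and 3 wildtype mice (81, 83 and 90) were made with the TruSeq kit from 1 ug of total RNA and read as single 50-base reads, per the labels' protocols. Per the submitters' processing notes, Bowtie2 and the build mm10 are listed, without a version. The sources used here do not name the program behind the table. The deposited values were taken as FPKM, since the header has the Cuffdiff layout. The authors' deposited log2 ratio runs wildtype over knockout and was recomputed from the FPKM as knockout over wildtype. The authors' test statistic is a score read as z, and the SE is the ratio divided by it. The deposited p-value and q-value were used as given over 11515 tested genes, of which 59 have no finite ratio. Coordinates are those of GENCODE M21 or RefSeq.

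No values per library were used, so limma, leave-one-out fits and intervals over mice could not be had, and read depth is unknown. The table holds 0 columns of other series. Alternatives were 3 other scalings, a minimum mean of 1 FPKM, pseudocounts of 1 and 0.5, and a q of 0.1. The scalings held the SE and readjusted q over all tested genes. The minimum kept the deposited p and readjusted q over the 10436 genes left. The pseudocounts gave ratios only, and the q of 0.1 was applied to the deposited q. Of the steps, the adjustment to q and the scalings were tested on simulated data. The comparison of protein sequences planned at the outset was not run. Members and lists were chosen with earlier results of these data known. Genes named are all 28 members and, per other list, up to 5 called genes or the smallest p, unless said otherwise. Python 3.11.15, pandas 2.3.3 and scipy 1.17.1 were used.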

Additional observations from a re-analysis of the deposited data

How the results depend on the processing

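No member was called as deposited, under the 3 other scalings, with a minimum of 1 FPKM or at a q of 0.1, and the smallest q over the first 4 of these alternatives lay between 0.323 and 0.603. Scaling both groups to the same sum of FPKM turned the members' median to -0.0187, left 12 ratios above 0 and 0 at an unadjusted p under 0.05. With the 50 highest genes left out of that sum, 2 members kept such a p. Under the same sum the ratios of 8 members changed sign: Acat2 (-0.15), Idi1 (-0.095), Fdps (-0.10), Lss (-0.17), Nsdhl (-0.02), Sc5d (-0.038), Srebf2 (-0.0093) and Insig1 (-0.15). Leaving out the 50 highest genes turned 3 of them, Acat2 (-0.0097), Lss (-0.033) and Insig1 (-0.0098). List medians also turned under the same sum: squalene and sterol arm -0.028, SREBP2 control -0.0093, oxysterol and efflux -0.12 and sterol transport -0.090. The transport and storage median turned to 0.044 with a minimum of 1 FPKM. Each same-sum scaling subtracts 1 constant from every ratio. Of the sterol turnover genes 2 were called lower under the same sum, in place of 1. The pseudocounts and quantile normalization reversed no member. The longer element TCACNCCAC left 1 gene in place of 3. No paired analysis was possible because the table holds 1 value per group, and leaving out a replicate could not be done for the same reason. As deposited, no member could have passed a q of 0.05 at a ratio under 0.77.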
